A study of Rattus norvegicus with 12 samples.

Results

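Polysome RNA was compared with total RNA in the livers of rat fetuses whose dams had been fasted, which gives, gene by gene, the relative loading of transcripts onto polysomes in the growth-restricted liver. The comparison used 6 of the 12 arrays of the series, 3 of polysome RNA and 3 of total RNA. Of 14497 genes that a probe with exactly 1 gene symbol represented, 10174 were bright enough to be tested, and 4323 were left out as dim. Each gene was read from its brightest probe over the 12 arrays.

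The animals were Sprague Dawley rats, and fetal livers were taken at day 19 of a gestation of 21 days. Fasted dams went without food for 48 hr, from day 17, a treatment that the labels call IUGR (intrauterine growth restriction), and fed dams ate freely up to the same day. The labels name 3 dams for each diet and call the arrays biological replicates. Every array was an Affymetrix Rat Gene 1.0 ST array, and the 6 arrays from fed dams (3 polysome, 3 total) serve here as the comparison group. Per the labels' protocols, polysome RNA was extracted from pooled polysome preparations with acid phenol and chloroform, and total RNA was isolated in guanidine thiocyanate over cesium chloride. Fraction and extraction therefore cannot be told apart in any difference given here. The labels do not say what was pooled, and fetal weight was not analysed here.

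A messenger RNA in active use carries several ribosomes at a time and sediments as a polysome, whereas idle messages and those with a lone ribosome stay lighter. Messages for secreted, membrane and lysosomal proteins are translated by ribosomes attached to the endoplasmic reticulum (ER). Those for cytosolic, nuclear and most mitochondrial proteins are translated largely on free ribosomes. Fetal liver at this age makes plasma proteins and is also a site of blood formation, so its RNA comes from hepatocytes, red cell precursors and a smaller stromal and immune compartment.

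Values are log2(intensity + 1). A difference is polysome minus total RNA on that scale, so a positive difference means that a transcript took up a larger share of polysome RNA than of total RNA. The arrays were normalised to one another, so differences are relative to the other transcripts and do not give the fraction of a message that was on polysomes. Tests were limma's moderated test across all genes, with Benjamini-Hochberg adjustment over the 10174 genes and a threshold of 0.05, and n was 3 arrays per group throughout. Where a replicate block is named, the fit also held the array number within each diet as a block, since total and polysome arrays of equal number deviated together. The labels do not say what a number marks. Arrays of fasted polysome RNA correlated with one another at 0.9941 to 0.9961 and arrays of fasted total RNA at 0.9942 to 0.9951, against 0.9858 to 0.988 between the fractions. No array of the 6 stood apart from its group.

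Loading differed widely between genes. In fasted dams 4446 of 10174 genes (43.7%) passed the threshold, of which 2590 (25.5% of the genes tested) were higher and 1856 (18.2%) lower on polysomes. By at least 1.5-fold, 554 genes (5.45%) were higher and 689 (6.77%) lower, and by at least 2-fold, 87 were higher and 135 lower. The 1.5-fold counts were 709 higher and 695 lower without fasted polysome replicate 2. With arrays centred on their median they were 678 and 602. In the other alternatives more genes were lower, so the larger side at 1.5-fold depended on the processing. Most differences were small, with a median absolute difference of 0.436 among the genes called. The median over all genes was 0.0544, and the 10th and 90th percentiles were -0.465 and 0.463. The 3 polysome arrays lay above the 3 total arrays in 3161 genes and below them in 2187.

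The gene highest on polysomes was Med21, a subunit of Mediator, the complex that links transcription factors to RNA polymerase II. It read 6.82, 6.65 and 6.91 in the 3 total arrays and 8.73, 8.98 and 8.87 in the 3 polysome arrays. The groups were far apart, with a difference of 2.07 ± 0.14 (SE), or 4.19-fold (limma adjusted p = 7.66e-07). Tmem256, a small membrane protein, followed with 7.83, 7.83 and 7.65 in total RNA and 9.63, 9.75 and 9.84 on polysomes, a difference of 1.97 ± 0.12. Atp5mg, a small subunit of mitochondrial ATP synthase, read 9.01, 8.91 and 8.98 in total RNA against 10.96, 10.59 and 10.8 on polysomes. Its difference was 1.82 ± 0.11, a 3.52-fold higher signal. Psmg4, a chaperone of proteasome assembly, read 8.35, 8.17 and 8.3 in total RNA and 10.24, 9.88 and 9.99 on polysomes (3.4-fold).

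The other 8 of the 12 highest genes with non-overlapping arrays differed by 1.44 to 1.74. Highest of these were Crip1 (1.74), a small LIM domain protein, Ndufb2 (1.68), a subunit of respiratory complex I, and Hbg1 (1.57), a beta-like globin. Next came Stfa3 (1.54), a cysteine protease inhibitor of the stefin family, Nedd8 (1.54), a ubiquitin-like modifier, and Gstm5 (1.47), a glutathione transferase. Mrps16 (1.45), a protein of the mitochondrial ribosome, and S100a16 (1.44), a calcium-binding protein, followed. Nedd8 read 8.4, 8.65 and 8.56 in total RNA and 10.12, 9.87 and 10.23 on polysomes. Globins, stefins, glutathione transferases, histones and ribosomal proteins have close copies in the genome, so values of single members of these families are uncertain where a probe can bind a copy.

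The gene lowest on polysomes was Ccdc107, which encodes a membrane protein with a coiled coil. It read 10.92, 10.73 and 11.02 in total RNA and 9.18, 8.06 and 8.88 on polysomes, so its polysome arrays were spread over more than 1 log2 unit and still lay below every total array. The difference was -2.18 ± 0.36 (4.54-fold lower, limma adjusted p = 0.000298). Dcn, which encodes decorin, a collagen-binding proteoglycan of the matrix, read 10.83, 10.47 and 10.4 in total RNA and 8.66, 8.55 and 8.54 on polysomes. It was 3.96-fold lower on polysomes (-1.98 ± 0.14). Asah1, the lysosomal acid ceramidase, read 10.67, 10.48 and 10.35 in total RNA against 8.91, 8.49 and 8.6 on polysomes, 3.56-fold lower. Col14a1, a collagen found along fibrils, read 10.11, 9.95 and 10.1 against 8.16, 8.42 and 8.31 (3.38-fold lower).

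Secreted and surface proteins made up most of the remaining lowest genes. Olfm4 (-1.75), a secreted granule glycoprotein, Mmp8 (-1.69), the neutrophil collagenase, Antxr1 (-1.67), a surface receptor that binds collagen, Cfhr4 (-1.66), a plasma protein related to complement factor H, Enpp3 (-1.66), a surface nucleotide pyrophosphatase, and Pamr1 (-1.58), a secreted protein with a protease-like domain, all had polysome arrays below total arrays. Cyp2b1 (-1.61), a drug-metabolising cytochrome P450 anchored in the ER membrane, read 8.24, 7.1 and 8.47 in total RNA and 6.33, 6.23 and 6.43 on polysomes. Its total arrays varied by more than 1 log2 unit, with replicate 2 the lowest. Ugt2b37, a glucuronosyltransferase of the ER, averaged 7.18 ± 0.423 (SD, n = 3) in total RNA and 5.28 ± 0.677 (SD, n = 3) on polysomes, the latter under the level of 6.07 used to filter dim genes, so no fold is given. Its limma adjusted p of 0.0173 missed the threshold without fasted polysome replicate 1 or 2, without fasted total replicate 1 or 3 and with a trended robust prior.

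**Figure D1:**
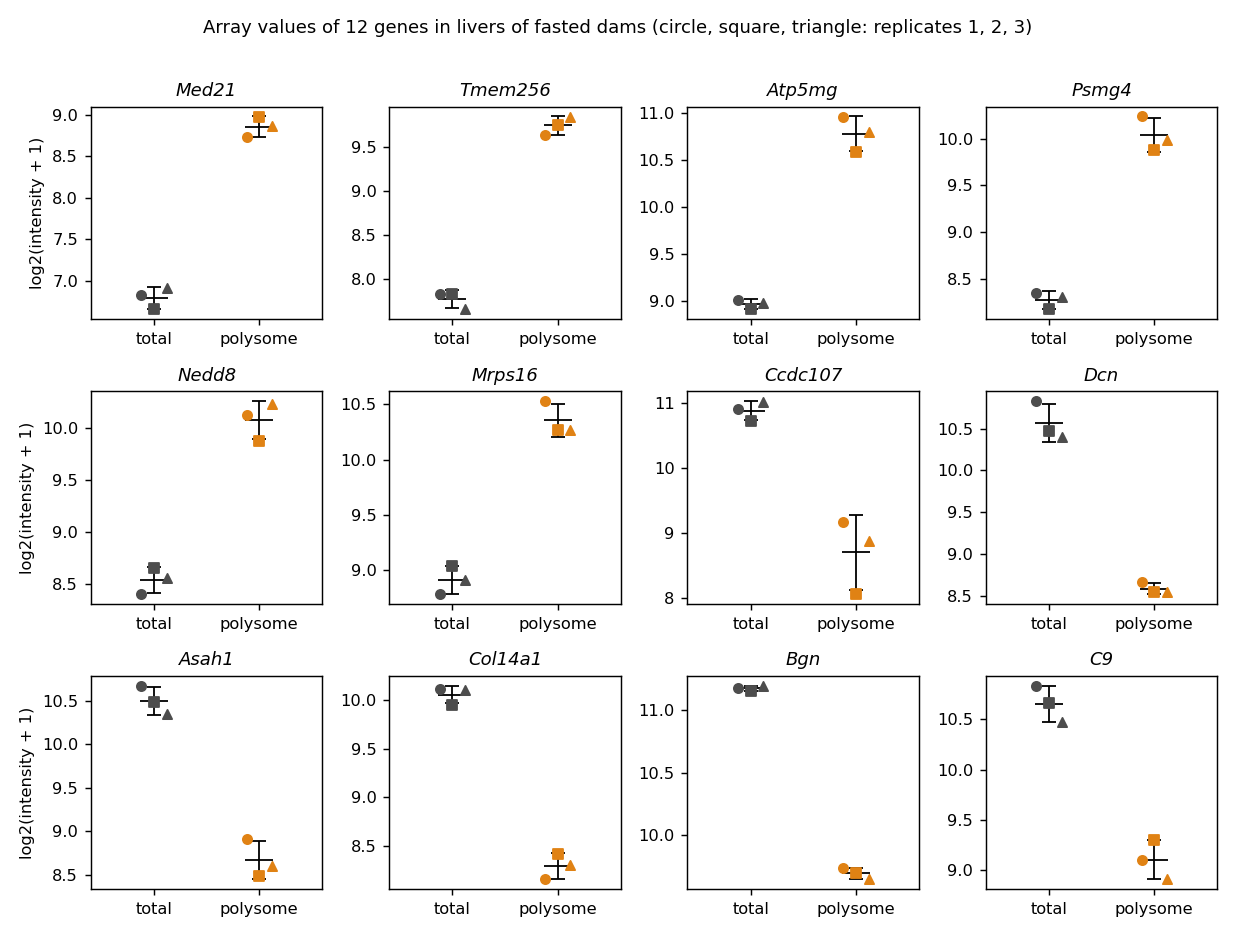
Log2(intensity + 1) of 12 genes in total RNA (grey) and polysome RNA (orange) of fasted dams, with 1 point per array, the horizontal tick at the mean and error bars of 1 SD (n = 3). Each panel has its own vertical axis, which does not start at 0. In every panel the 3 polysome arrays lie on one side of the 3 total arrays, above them from Med21 to Mrps16 and below them from Ccdc107 to C9.

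Mitochondrial ribosomal proteins, respiratory chain subunits and import factors were mostly higher on polysomes, beside 25.5% higher and 18.2% lower over all genes. Of 68 tested proteins of the mitochondrial ribosome, which makes the few proteins encoded in mitochondrial DNA, 54 were higher and 0 lower, and their median was 0.52 beside 0.0544 over all genes. Mrps16, Mrpl34 and Mrpl36 rose most. Mrpl34 read 8.83, 9.07 and 8.81 in total RNA and 10.29, 10.14 and 10.41 on polysomes, a difference of 1.37 ± 0.13, and Mrpl36 differed by 1.2 ± 0.1. Mrps27 had the lowest value, -0.14. The list count stayed between 48 and 58 in every alternative analysis.

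Subunits of oxidative phosphorylation encoded in the nucleus were higher in 51 of 73 and lower in 4, with a median of 0.47. The highest were Atp5mg, Ndufb2 and Ndufa2, and Ndufa2, an accessory subunit of complex I, read 7.77, 7.82 and 7.89 in total RNA and 9.04, 8.98 and 9.13 on polysomes. The 4 lower members belonged to complexes II and III. They were Uqcrfs1 (-0.66), the Rieske iron-sulfur protein, Uqcrb (-0.56), Sdha (-0.45), the flavoprotein of succinate dehydrogenase, and Uqcrc2 (-0.21), a core protein of complex III, which did not pass with centred arrays or without fasted total replicate 3. Sdhb, the iron-sulfur partner of Sdha, was higher (0.76 ± 0.088, limma adjusted p = 1.91e-05). Both directions thus occurred within complex II.

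The import machinery that brings such proteins into the organelle was higher in 14 of 19 and lower in 0, with a median of 0.4 (1 lower with quantile normalization or without fasted polysome replicate 2). Timm9, a small chaperone of the intermembrane space, read 8.63, 8.65 and 8.59 in total RNA and 10, 9.77 and 9.91 on polysomes (1.27 ± 0.088). Timm8b, its relative, differed by 1.25 and Tomm7, a small subunit of the outer membrane translocase, by 1.21. The groups did not overlap for Timm9 or Tomm7. Tomm5, another small subunit of the same translocase, was at -0.22 and did not pass.

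Transcripts of the protein degradation machinery were also mostly higher. Of 38 proteasome subunits, 23 were higher and 1, Psmd14 (-0.28), the deubiquitinase of the lid, was lower, with a median of 0.31. In 5 alternatives, the replicate block among them, 2 were lower. The largest difference was that of Psma7 (1.02), then Psma2 (0.82) and Psma5 (0.79), which are ring subunits of the core particle. Psma7 read 9.45, 9.39 and 9.55 in total RNA and 10.39, 10.56 and 10.49 on polysomes.

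Replication-dependent histones, whose messages end in a stem-loop and carry no poly(A) tail, were higher in 13 of 19 and lower in 0, with a median of 0.35. H2bc12 read 10.42, 10.82 and 10.78 in total RNA and 12, 12.01 and 12.04 on polysomes (1.34 ± 0.11), and H1f1 read 11.29, 11.72 and 11.51 against 12.92, 12.9 and 12.72. The polysome arrays were above the total arrays in both. H4c14 differed by 1.16. Among 48 genes of DNA replication, 16 (33.3%) were higher and 3 (6.25%) lower, beside 25.5% and 18.2% over all genes. The highest was Rpa3 (1.37 ± 0.14), the smallest subunit of the protein that coats single-stranded DNA. The 3 lower genes were Pola1 (-0.39), the catalytic subunit of polymerase alpha, Pcna (-0.25) and Rrm2 (-0.19), and with arrays centred on their median or without fasted total replicate 3 the count was 1. Of 41 mitotic genes, 7 (17.1%) were higher and 6 (14.6%) lower, both under the shares of all genes. Cks1b (0.84), a cofactor of cyclin-dependent kinases, was at the top and Cdc20 (-0.65), an activator of the anaphase-promoting complex, at the bottom. The count of higher mitotic genes was 3 without fasted total replicate 1, and 4 without fasted total replicate 2 or fasted polysome replicate 3.

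Complement and coagulation factors and most plasma carriers were lower. Of 39 complement and coagulation factors, 36 were lower and 1 higher, with a median of -0.6. C9, which forms the pore of the complement attack complex, read 10.83, 10.66 and 10.47 in total RNA and 9.1, 9.3 and 8.91 on polysomes (-1.55 ± 0.12). C6, another part of that complex, read 11.14, 11.1 and 11.2 against 9.86, 9.75 and 10.01, and Pros1, the anticoagulant protein S, differed by -1.24. The member that was higher, C1qc (0.27), is a chain of complement C1q that macrophages make. Its limma adjusted p of 0.043 rose to between 0.0541 and 0.2 in 11 alternatives, among them the replicate block (0.0565), which left 0 members higher.

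Plasma carriers, a list of albumin, fetoprotein, transferrin and related proteins, were lower in 17 of 19 and higher in 0, with a median of -0.53. With each array centred on its median the count was 11. Serpina3n (-1.47 ± 0.32), an acute-phase protease inhibitor, read 11.51, 10.65 and 9.97 in total RNA and 9.59, 8.99 and 9.16 on polysomes, so its total arrays were widely spread and still above the polysome arrays. Cp, the copper carrier ceruloplasmin, differed by -1.22 and Hrg, histidine-rich glycoprotein, by -1.08. The most abundant carriers moved little. Alb, serum albumin, read 14.07, 14.07 and 14.02 in total RNA against 13.94, 13.96 and 13.95 on polysomes, a difference of -0.1 ± 0.06 that did not pass (limma adjusted p = 0.19; 0.0291 with a trended robust prior). Afp, alpha-fetoprotein, was lower by a difference of -0.21 (limma adjusted p = 0.0182), which missed the threshold with centred arrays and without fasted polysome replicate 1 or fasted total replicate 1. Ttr, transthyretin, was at 0.08 and did not pass.

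Apolipoproteins were divided, with 4 of 13 (30.8%) higher and 5 (38.5%) lower, beside 25.5% and 18.2% over all genes. Their median was -0.03. Apoc4 (0.71), Apoa2 (0.39) and Apoc1 (0.31), which are small lipoprotein components, were higher. Apon (-1.08), Apob (-0.58), the very large structural protein of lipoproteins, and Apom (-0.52) were lower. The count of higher members was 1 without fasted total replicate 1 and 2 without fasted polysome replicate 2, and Apoa2 was among those lost in both.

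Genes of the extracellular matrix were lower or did not pass. Of 25 matrix proteoglycans and glycoproteins 17 were lower and 0 higher, with a median of -0.72. Besides Dcn, Ogn (-1.52), or osteoglycin, and Bgn (-1.48), or biglycan, of the same family of small leucine-rich proteoglycans, fell most. Bgn read 11.17, 11.15 and 11.19 in total RNA and 9.74, 9.7 and 9.65 on polysomes, so both groups were tight and far apart. Of 23 collagens 8 were lower and 0 higher, led by Col14a1, Col1a2 (-1.04) and Col1a1 (-0.87), while the list's median was -0.07. Of the 8, 6 were lower by at least 1.5-fold. The collagens that did not pass lay between -0.13 and 0.09.

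Lysosomal enzymes and membrane proteins, which also enter the ER on their way, were lower in 33 of 34, and this count was 33 in every alternative. The median was -0.72. Ctsl, the protease cathepsin L, read 11.51, 11.51 and 11.32 in total RNA and 10.26, 10.47 and 10.1 on polysomes (-1.17 ± 0.14). Npc1, which exports cholesterol from lysosomes, read 10.47, 10.24 and 10.38 against 9.24, 9.26 and 9.2. The member that did not pass was Ctsb, cathepsin B (-0.15, limma adjusted p = 0.28).

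**Figure D2:**
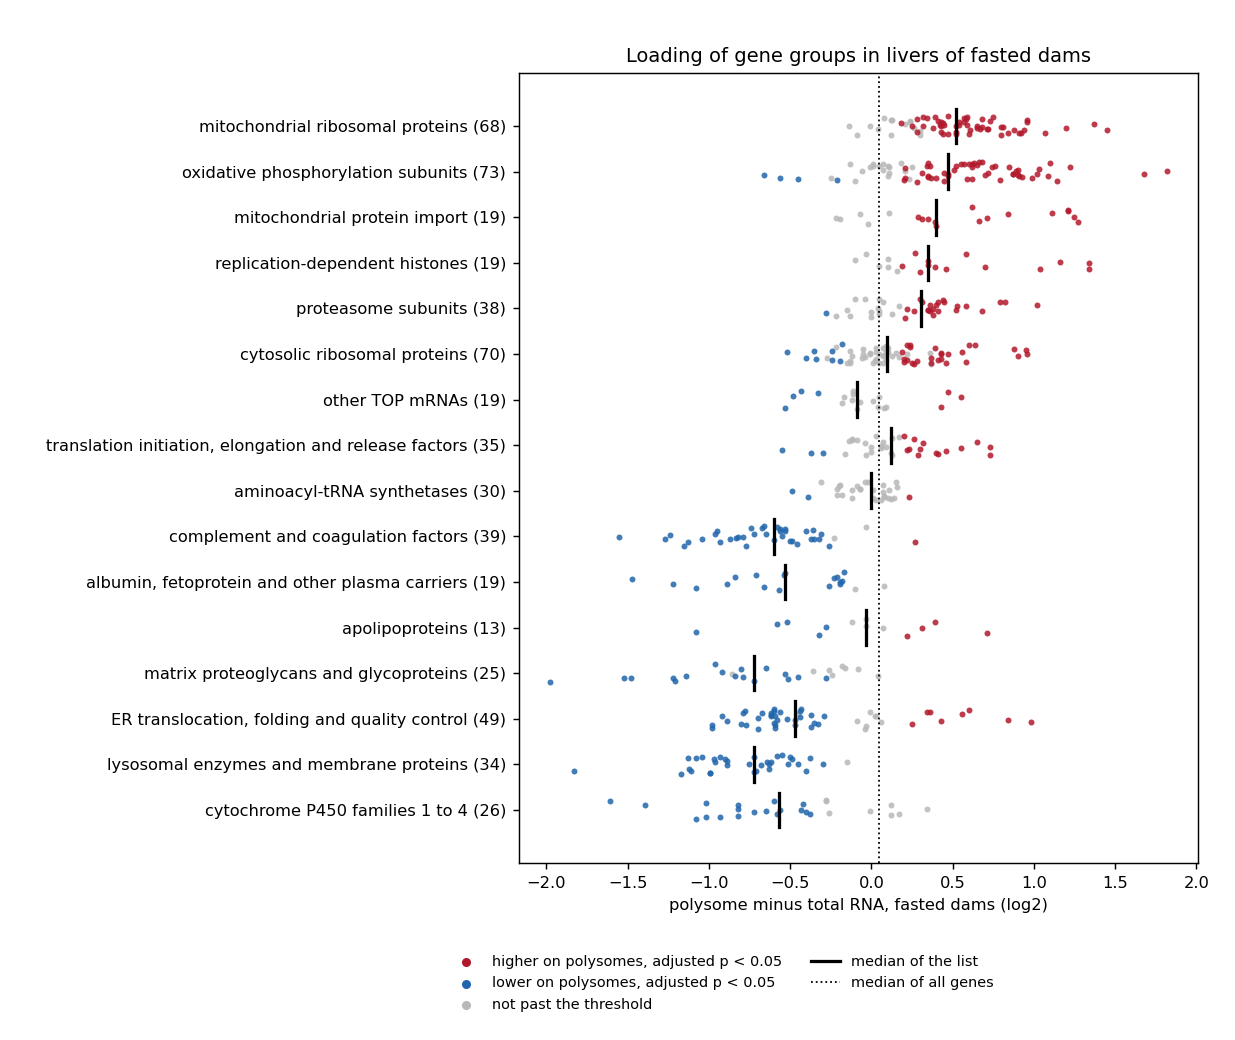
Polysome minus total RNA in fasted dams (log2) for each tested member of 16 gene lists, with the number tested in brackets. Points are genes, red where higher and blue where lower at an adjusted p under 0.05, grey otherwise, the black bar is the median of the list and the dotted line the median of all genes (0.0544). Medians run from 0.52 for mitochondrial ribosomal proteins to -0.72 for lysosomal and matrix proteins. Vertical scatter within a list has no meaning.

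The machinery of the ER itself was lower in 33 and higher in 8 of 49 genes, with a median of -0.47. The lower genes included Sec63 (-0.98), a membrane partner of the translocation channel, Hyou1 (-0.98), an ER chaperone, and Pdia4 (-0.92), a disulfide isomerase. The higher genes included Sec61g (0.98), the small gamma subunit of the channel, Srp19 (0.84), a cytosolic protein of the signal recognition particle, and Ost4 (0.6), a very small subunit of the oligosaccharyltransferase. Sec61g read 11.31, 11.54 and 11.45 in total RNA and 12.41, 12.32 and 12.51 on polysomes, whereas Sec63 read 10.46, 10.34 and 10.3 against 9.36, 9.45 and 9.35. These 2 genes thus had differences of equal size and opposite sign. Hspa5, the main ER chaperone, was at -0.44 (limma adjusted p = 0.000807). Xbp1, a transcription factor of the ER stress response, was at -0.43, and its limma adjusted p of 0.0197 missed the threshold without fasted polysome replicate 2 or 3 or fasted total replicate 1.

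Of 22 genes of fatty acid and triglyceride synthesis 10 were lower and 0 higher, with a median of -0.25. Elovl5 (-1.2) and Elovl2 (-0.95), which lengthen fatty acids in the ER membrane, and Mttp (-0.89), which loads lipid onto apolipoprotein B in the ER, fell most, and Scd, the ER desaturase, was at -0.7. Fasn, the cytosolic fatty acid synthase, was at 0.24 and did not pass (limma adjusted p = 0.0694), but passed as higher with the replicate block (0.0336) and in 4 other alternatives. In cholesterol synthesis 3 of 19 (15.8%) were higher and 7 (36.8%) lower, beside 25.5% and 18.2% over all genes. Pmvk (0.4), Mvd (0.39) and Fdps (0.35), enzymes of the mevalonate steps, were higher, of which Mvd did not pass in 6 alternatives. Dhcr7 (-0.95), Msmo1 (-0.89) and Cyp51 (-0.77), ER membrane enzymes of the later sterol steps, were lower.

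Of 31 genes of glucose metabolism 5 (16.1%) were higher and 6 (19.4%) lower, beside 25.5% and 18.2% over all genes. The lower ones were led by Slc37a4 (-0.99), which carries glucose 6-phosphate into the ER, and the surface glucose transporters Slc2a2 (-0.9) and Slc2a1 (-0.71). The higher ones were led by the cytosolic enzymes Ldhb (0.59), lactate dehydrogenase B, Hk1 (0.33), a hexokinase, and Pkm (0.31), pyruvate kinase. Slc37a4 read 11.7, 11.4 and 11.61 in total RNA and 10.64, 10.66 and 10.44 on polysomes. Pck1, the cytosolic enzyme that controls entry into gluconeogenesis, did not pass (0 ± 0.2, limma adjusted p = 0.992).

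Cytochrome P450 enzymes of families 1 to 4 were lower in 18 of 26 and higher in 0, with a median of -0.57, and 24 of the 50 on the array were too dim to test. Without fasted polysome replicate 2, 1 was higher. Cyp2e1, which oxidises ethanol and small solvents, read 8.35, 8.75 and 9.38 in total RNA and 7.11, 7.46 and 7.75 on polysomes (-1.39 ± 0.21). Cyp2d5 differed by -1.08. Cyp7a1, which starts the conversion of cholesterol to bile acids, was at -0.93 ± 0.24 (limma adjusted p = 0.00665). Of 34 genes of fatty acid oxidation and ketone bodies 2 (5.88%) were higher and 9 (26.5%) lower, beside 25.5% and 18.2% over all genes. The higher ones were Eci1 (0.87) and Acot12 (0.54), and with the replicate block 4 were higher. Cpt1a, the gate for fatty acids into mitochondria, was at -0.19 and did not pass (limma adjusted p = 0.365; 0.0487 without fasted polysome replicate 3). In the urea cycle and amino acid breakdown, 5 of 38 (13.2%) were higher and 6 (15.8%, near the share of all genes) lower. Arg1 (0.64), arginase, was the highest. Among the lower were Cps1 (-0.42) and Otc (-0.37), the mitochondrial enzymes of the first steps of the urea cycle. The lower count was 3 without the filter, with centred arrays or without fasted total replicate 1, 10 with quantile normalization and 11 with either form of replicate block.

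Several gene families hold members whose products go to different places, and these were set side by side after their values had been seen. Of 32 carriers of the Slc25 family, which sit in the mitochondrial inner membrane, 8 were higher, close to the 25.5% of all genes, and 0 lower (1 lower in 7 alternatives, the replicate block among them). Of 179 other solute carriers, mostly of the cell surface and internal membranes, 3 were higher and 106 (59.2%) lower, beside 18.2% lower over all genes. The medians were 0.08 and -0.31. With the replicate block 5 of the other carriers were higher, and 1 was higher with quantile normalization or without fasted polysome replicate 1 or 3 or fasted total replicate 2. Of 13 glutathione transferases, largely cytosolic, 5 were higher and 0 lower (1 lower without fasted total replicate 2). The 3 tested UDP-glucuronosyltransferases, which face the ER lumen, were lower, and 5 of the 8 on the array were too dim to test. Of the 3, Ugt2b37 had a polysome mean under the filter level, and the count fell to 2 in some alternatives. Of 15 serpins of the secreted clades 13 were lower and 0 higher with a median of -0.56. Of 5 clade B serpins, which lack a classical signal peptide, 1 was higher, Serpinb6a (0.52), and 2 were lower, Serpinb10 (-0.59) and Serpinb9 (-0.43). Without fasted polysome replicate 2 or fasted total replicate 3, 0 of these 5 were lower.

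**Figure D3:**
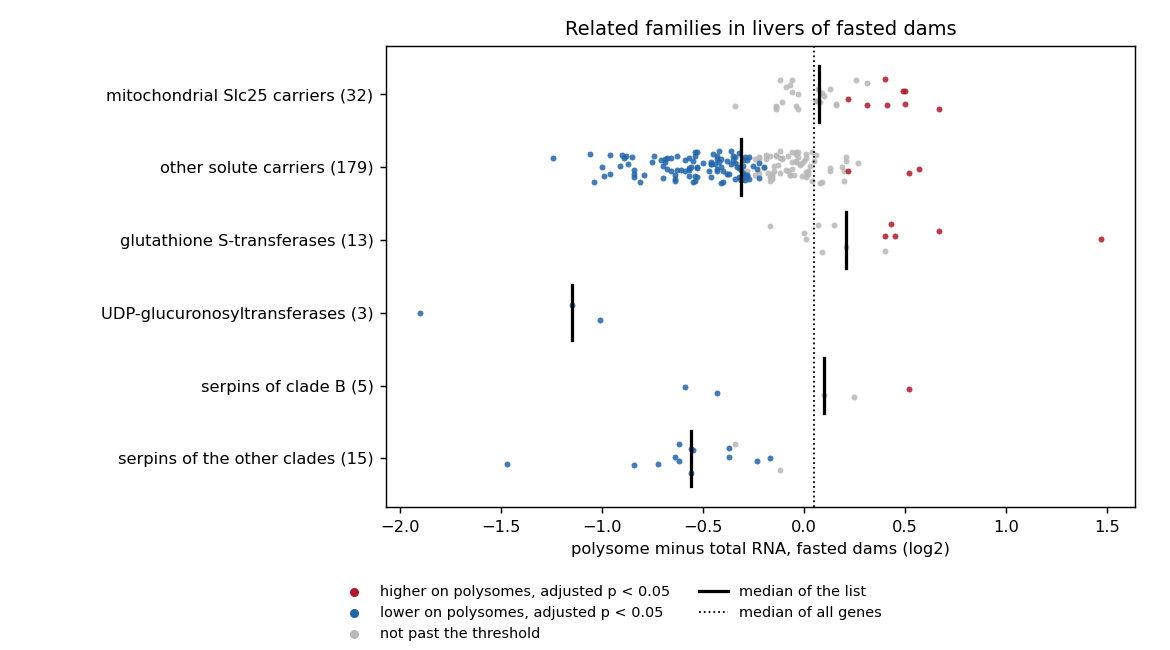
Polysome minus total RNA in fasted dams (log2) for 3 pairs of related families, drawn as points per gene with the number tested in brackets. Red is higher and blue lower at an adjusted p under 0.05, and the black bar is the median. The other solute carriers and the secreted serpins centre on -0.31 and -0.56, and the Slc25 carriers and glutathione transferases on 0.08 and 0.21. The families were chosen after their values were seen.

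Small intracellular complexes and families were chosen in the same way, after their values were seen, and their counts stand beside 25.5% higher over all genes. Of 23 Mediator subunits 16 (69.6%) were higher and 0 lower, with Med21 far above the next, Med11 (1.09), and Med14 lowest at -0.03. Of 12 Lsm proteins, which bind RNA in splicing and decay, 11 were higher, led by Lsm7 (1.11), and 7 were higher without fasted polysome replicate 3. Of 25 RNA polymerase subunits 12 (48.0%) were higher, led by Polr2i (1.34), and 1, Polr3g (-0.52), was lower, a count that was 0 or 2 in 6 alternatives. Among 27 Ube2 ubiquitin-conjugating enzymes 15 were higher and 0 lower, and among 9 Commd proteins, which regulate protein trafficking, 7 were higher and 0 lower. Of 49 Rab GTPases, which direct vesicle traffic, 14 (28.6%) were higher, close to the share of all genes, and 2 lower. Without fasted polysome replicate 1 or 3 the higher count was 8, and the lower count ranged from 0 to 3 over the alternatives. Of 9 S100 proteins 8 were higher. The ninth, S100g, had a difference of 1.32 with an SE of 0.73 and did not pass (limma adjusted p = 0.164), but passed with the replicate block (0.000211) and without fasted polysome replicate 2 (0.0399). By contrast, 8 of 13 integrin chains, 9 of 14 semaphorins and plexins and 8 of 15 tetraspanins, which are cell surface or secreted proteins, were lower, and 0 of these 3 families were higher.

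Transcripts of the translation apparatus were spread around the middle. Of 70 cytosolic ribosomal proteins 27 (38.6%) were higher and 8 (11.4%) lower, beside 25.5% and 18.2% over all genes. Their median was 0.09. Rps3 read 12.28, 12.32 and 12.05 in total RNA and 13.13, 13.27 and 13.13 on polysomes (0.96 ± 0.084), and Fau (0.95) and Rpl24 (0.9) were close behind. Rplp1, an acidic protein of the ribosomal stalk, was the lowest, with 12.46, 12.64 and 12.36 against 12.02, 11.88 and 12.02 (-0.52 ± 0.086). Rps3a (-0.4) and Rpl7 (-0.35) were also lower. The count of lower members was 5 without the filter, with centred arrays and without fasted polysome replicate 1 or fasted total replicate 1.

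Ribosomal protein messages belong to the TOP class, which begin with a C and a run of pyrimidines and whose translation depends on the nutrient-sensing kinase complex mTORC1. The annotated starts were read from RefSeq (build GRCr8, the first start listed for each gene), on the strand of the gene, for a C at the start followed by at least 4 bases that are each C or T. Such a start was found in 722 of 27457 genes (2.63%), in 220 of 8441 tested genes (2.61%) and in 23 of 58 cytosolic ribosomal proteins (39.7%) that had a start. The 3 highest and 3 lowest ribosomal proteins that passed the threshold and had such a start are shown here, to let the starts of oppositely loaded messages be compared. Each line gives 10 bases before and 20 bases from the start, with the run in capitals.
Rps14: ccgtctctctCTTTCCggtggaggagtctg
Rpl35a: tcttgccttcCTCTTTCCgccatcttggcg
Rps15: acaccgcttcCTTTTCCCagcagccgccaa
Rplp1: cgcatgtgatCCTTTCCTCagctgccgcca
Rps3a: gtacttccgcCCTTTTggctctcagagcgg
Rplp0: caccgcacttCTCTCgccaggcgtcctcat

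The windows lie at chr18:56498250-56498279 (plus strand) for Rps14, and on the minus strand at chr11:81235002-81235031 for Rpl35a, chr7:10068096-10068125 for Rps15, chr8:71290853-71290882 for Rplp1, chr2:173827023-173827052 for Rps3a and chr12:46718371-46718400 for Rplp0. The first 3 were higher on polysomes, by 0.88, 0.6 and 0.58, and the last 3 lower, at -0.52, -0.4 and -0.34. Counted from the listed start, runs were 6, 8 and 8 bases long in the former and 9, 6 and 5 in the latter. In each window the base directly before the listed start is also C or T. Such bases were not counted, so these lengths depend on the listed start and do not compare the full runs. Of the 23 ribosomal protein genes with the run 12 were higher and 3 lower (median 0.2), and of those without it at the listed start 11 were higher and 4 lower (median 0.09). Over all tested genes the medians were 0.08 with and 0.06 without the run. A missing match says only that these letters were not at the listed start.

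Other messages listed as TOP were likewise divided, with 3 of 19 (15.8%) higher and 4 (21.1%) lower, beside 25.5% and 18.2% over all genes. Of the 15 that had a start, 0 had the C and pyrimidine run at the listed start. Naca (0.55), which guards nascent chains at the ribosome, read 9.29, 9.14 and 9.21 in total RNA and 9.73, 9.82 and 9.74 on polysomes. Eef1d (0.47) and Eif3k (0.43) were also higher, and Hnrnpa1 (-0.53), Vim (-0.48) and Tpt1 (-0.43) were lower. The elongation factors Eef1a1 (-0.07) and Eef2 (0.08) and the nucleolar protein Npm1 (-0.09) did not pass.

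Of 35 translation factors 14 were higher and 3 lower. Eif3i (0.73), Eif1b (0.73) and Eef1e1 (0.65) rose most. The lower ones belonged to the step that brings in the first tRNA: Eif2s1 (-0.55) and Eif2s3 (-0.37) are subunits of eIF2 and Eif2b3 (-0.3) of its exchange factor. Without fasted polysome replicate 3 the lower count was 1, with Eif2s3 and Eif2b3 lost. The arrays of Eif2b3 overlapped, and it passed in 9 of 12 fits without 1 array and in 7 of 9 other alternatives. Eif4ebp1, the repressor of cap-dependent translation that mTORC1 inactivates, was higher (0.46 ± 0.12, limma adjusted p = 0.00645). Of 30 aminoacyl-tRNA synthetases 1 (3.33%) was higher, Tars2 (0.23), and 2 (6.67%) lower, Qars1 (-0.49) and Lars1 (-0.39), both under the shares of all genes. That 1 became 0 in 4 alternatives and the 2 became 5 with the replicate block. Of 43 ribosome biogenesis genes 13 (30.2%, near the share of all genes) were higher and 5 (11.6%) lower. Emg1 (0.94), Rrp9 (0.81) and Nhp2 (0.67) were highest and Noc3l (-0.58) lowest, and 3 were lower without fasted polysome replicate 1.

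Among 39 genes of autophagy and the mTORC1 pathway 18 (46.2%) were higher and 3 (7.69%) lower, beside 25.5% and 18.2% over all genes. Their median was 0.23, and the higher count ranged from 12 to 24 over the alternatives. Map1lc3a (0.78), a protein that coats autophagosomes, and Lamtor4 (0.78) and Lamtor5 (0.56), which hold mTORC1 at the lysosome, were highest. Rraga (-0.43), the GTPase that recruits mTORC1 there, Atg3 (-0.33) and Atg9a (-0.24) were lower.

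Lists built around known control after transcription gave mixed values. Of 18 selenoproteins, which read a stop codon as selenocysteine, 7 (38.9%) were higher and 2 (11.1%) lower, beside 25.5% and 18.2% over all genes. With quantile normalization or without fasted polysome replicate 1, 4 were lower. Gpx4, which protects membranes from lipid peroxides, read 8.98, 9.01 and 9.08 in total RNA and 10.48, 10.2 and 10.47 on polysomes (1.36 ± 0.11). Msrb1 differed by 1.02 and Gpx1 by 0.49. The lower members, Selenoi (-0.73) and Selenos (-0.59), are ER membrane proteins, and Selenop, the secreted selenium carrier, did not pass (-0.09).

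Polyamine and antizyme genes were higher in 8 of 13 and lower in 0, with a median of 0.3, and Paox was lower with the replicate block or without fasted polysome replicate 1. Dhps (0.84) and Dohh (0.78) make hypusine, the modified residue of the elongation factor eIF5A, and Oaz1 (0.46) is the antizyme whose synthesis needs a ribosomal frameshift. Odc1 (0.15) and Amd1 (0.21), the regulated enzymes of the pathway, did not pass (limma adjusted p = 0.159 and 0.115, the latter 0.0272 without fasted polysome replicate 2). Of 10 genes listed for iron-responsive elements 1 was higher, Sdhb, with 2 higher without fasted total replicate 3. The elements were not checked in rat sequences, so membership of this list, that of Sdhb included, is uncertain. The 4 lower were Slc40a1 (-0.91), the iron exporter ferroportin, Tfrc (-0.48), the transferrin receptor, Slc11a2 (-0.44), an iron importer, and Fth1 (-0.42), ferritin heavy chain. Slc40a1 read 12.61, 12.44 and 12.53 in total RNA and 11.67, 11.58 and 11.6 on polysomes. The light chain Ftl1 (0.03) and Alas2 (0.04), the first enzyme of red cell haem synthesis, did not pass.

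Of 32 genes of the ATF4 response or with upstream open reading frames 7 (21.9%) were higher and 7 (21.9%) lower. These counts are near the 25.5% and 18.2% over all genes, and 4 were higher without fasted polysome replicate 1 or fasted total replicate 3. The amino acid transporters Slc7a1 (-0.57) and Slc38a2 (-0.56) and the receptor Vldlr (-0.69) were at the lower end, and Nupr1 (0.63), a stress-induced nuclear protein, and Psph (0.52), an enzyme of serine synthesis, at the upper end. Atf4 itself was at 0.2 and did not pass (limma adjusted p = 0.185).

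Counts of transcription regulators stand beside 25.5% higher and 18.2% lower over all genes. Of 174 zinc finger proteins 47 (27.0%, close to that share) were higher and 10 lower (6 lower without fasted total replicate 3), and of 16 clock genes 7 (43.8%) were higher and 0 lower (1 lower with the replicate block or without fasted total replicate 2), led by the repressor Cry1 (0.84). Of 39 immediate early and short-lived regulators 8 (20.5%, under the share of all genes) were higher and 5 lower, with 13 higher with the replicate block. Id3 (1.02), an inhibitor of helix-loop-helix factors, and Zfp36 (0.79), which speeds the decay of messages, were highest, and Ccn1 (-0.57) and Ccn2 (-0.39), which are secreted, were at the lower end. Of 25 liver-enriched transcription factors 10 were higher and 4 lower. Creb3l3 (-0.53), a factor held in the ER membrane until it is cleaved, was the lowest and Nr1h3 (0.52), the oxysterol receptor LXR alpha, was among the highest. The lower count was 1 or 2 in 9 alternatives.

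Of 58 splicing factors 14 (24.1%) were higher and 17 (29.3%) lower, beside 25.5% and 18.2% over all genes. Without fasted polysome replicate 3 or fasted total replicate 1, 9 were higher. The small core proteins Snrpd1 (1.11) and Snrpg (0.82) and the small subunit Sf3b5 (0.95) were highest, and Srsf4 (-0.89), an SR protein, Hnrnpm (-0.75) and Hnrnph3 (-0.65) lowest. Non-coding RNAs were represented by 6 tested genes, of which 4 were lower and 1 higher. Rpph1, the RNA of ribonuclease P, which is not translated, read 11.79, 12 and 11.91 in total RNA and 10.55, 10.58 and 10.11 on polysomes (-1.49 ± 0.15). H19, an imprinted non-coding RNA abundant in fetal liver, was at -0.63 ± 0.066. Terc, the RNA template of telomerase, was higher (0.76 ± 0.15, limma adjusted p = 0.00106).

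Growth genes of the insulin-like growth factor (IGF) axis and imprinted genes were lower in 12 of 29 (41.4%) and higher in 2 (6.9%). Over all genes 18.2% were lower and 25.5% higher. The list's median was -0.18, and its lower count ranged from 8 to 14 over the alternatives. With centred arrays 5 were higher, with the replicate block 4, and without fasted total replicate 1 there was 1. Igf2, the main fetal growth factor of this family, read 13.21, 13.16 and 13.13 in total RNA and 12.85, 12.95 and 12.84 on polysomes, a small difference of -0.28 ± 0.065 with no overlap. Its clearance receptor Igf2r was at -0.78. The binding proteins Igfbp3 (-1.06), Igfbp7 (-0.81) and Igfbp1 (-0.6) were lower, and Igfbp3 read 8.38, 8.76 and 8.86 against 7.43, 7.5 and 7.87. Igfbp2 (-0.36) did not pass (limma adjusted p = 0.143), and passed with the replicate block (0.0272). Irs1 (0.59), the cytosolic adaptor of the insulin and IGF receptors, was higher.

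Markers of the cell types in the liver followed the same range of values. Their counts stand beside 25.5% higher and 18.2% lower over all genes. In bulk RNA, the share of a cell type in each preparation and the loading of its messages cannot be told apart. Hepatocyte markers were lower in 8 of 12 (median -0.18) and their summed intensity was 133036 to 139216 in the total arrays and 118318 to 119215 in the polysome arrays. The count was 4 or 5 in 7 alternatives, among them centred arrays. Erythroid markers were higher in 8 of 31 (25.8%, close to the share of all genes) and lower in 3 (9.68%). Their median was 0.07, with sums of 156202 to 163412 in total and 165404 to 173352 in polysome arrays. Hbg1 was the highest erythroid marker, and Tal1 (0.68), a factor of early blood cells, was also higher, while the membrane proteins Tfrc and Rhag (-0.35) were lower.

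Stromal and immune markers had lower sums on polysomes in most lists. Macrophage markers were lower in 12 of 20 and higher in 3 (median -0.6; 1 higher without fasted polysome replicate 3), with sums of 21000 to 22823 in total and 16547 to 17982 in polysome arrays. Endothelial markers were lower in 14 of 21 and higher in 1 (median -0.4; 2 higher without fasted total replicate 2), with sums of 13231 to 13500 and 8480 to 9091. Stellate and mesenchymal markers were lower in 11 of 19 and higher in 2 (median -0.77), with sums of 15618 to 16350 and 11226 to 11395, and 1 was higher with quantile normalization or without fasted polysome replicate 1 or 3 or fasted total replicate 1.

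Both directions occurred within a cell type. The macrophage marker Mrc1, the surface mannose receptor, read 10.52, 10.38 and 10.43 in total RNA and 9.3, 9.46 and 9.37 on polysomes, whereas Tyrobp, a short signalling adaptor of the same cells, read 10.04, 10.09 and 9.99 against 10.75, 10.56 and 10.69. In endothelial cells Fcgr2b (-1.38), a surface receptor, and Kdr (-0.8), the receptor for vascular endothelial growth factor, were lower and the transcription factor Sox18 (0.47) was higher. Among neutrophil markers 7 of 19 were lower and 2 higher (4 higher with the replicate block), with sums of 21585 to 24694 in total and 19120 to 22632 in polysome arrays. The cytosolic S100a8 (1.43) and S100a9 (1.09) were higher, and the granule proteins Mmp8 and Ngp (-0.98) lower. In the megakaryocyte list 6 of 12 were lower and 1 higher, with sums of 9233 to 10997 and 6922 to 7800. The part of cell composition in the loading of the matrix, collagen and surface genes was not tested.

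The same contrast in fed dams gave 4425 genes past the threshold (43.5%). Both diets called 3458 genes in the same direction, which is 77.8% of the fasted and 78.1% of the fed calls, and 0 in opposite directions. Across the 10174 genes the 2 sets of differences correlated at 0.906 (Pearson) and 0.874 (Spearman), as a description, since genes are not independent replicates. For Med21 the fed difference was 1.88 beside 2.07 in fasted dams, for Atp5mg 1.63 beside 1.82, for Dcn -2.47 beside -1.98 and for Asah1 -1.97 beside -1.83. Cyp2b1 (-0.59 in fed beside -1.61 in fasted dams) did not pass in fed dams (limma adjusted p = 0.148). Nor did Ugt2b37 (-0.59, limma adjusted p = 0.444), while the other genes named above as lowest on polysomes passed in both diets. The list medians for fed dams were 0.37 for mitochondrial ribosomal proteins, 0.39 for oxidative phosphorylation, -0.6 for complement and coagulation factors and -0.72 for lysosomal proteins.

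The test of the difference between diets found 0 of 10174 genes (0.0%) past the threshold with limma, with a smallest adjusted p of 0.856, and 549 genes (5.4%) at an unadjusted p under 0.05. With the replicate block 1 gene passed, Cpa1 (adjusted p = 0.0192), a pancreatic carboxypeptidase. It read 7.07, 7.21 and 6.72 in fasted total RNA and 7.5, 7.16 and 7.29 on fasted polysomes, and in fed dams 10.1, 7.87 and 8.98 in total RNA against 7.79, 6.44 and 7.33. The median SE of such a difference was 0.134, against 0.0945 for loading within a diet. The genes with the smallest p were Lox (-1.01 in fasted and -1.65 in fed dams), which crosslinks collagen, Rab18 (0.32 and 0.8), a GTPase of lipid droplets, Zfp521 (0.28 and -0.45), Hexd (-0.46 and -0.02), a hexosaminidase, Anapc10 (0.85 and 0.27), a subunit of the anaphase-promoting complex, and Rpsa (-0.05 and 0.4), a ribosomal protein. None of these 6 is shown to differ between the diets by this test.

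**Figure D4:**
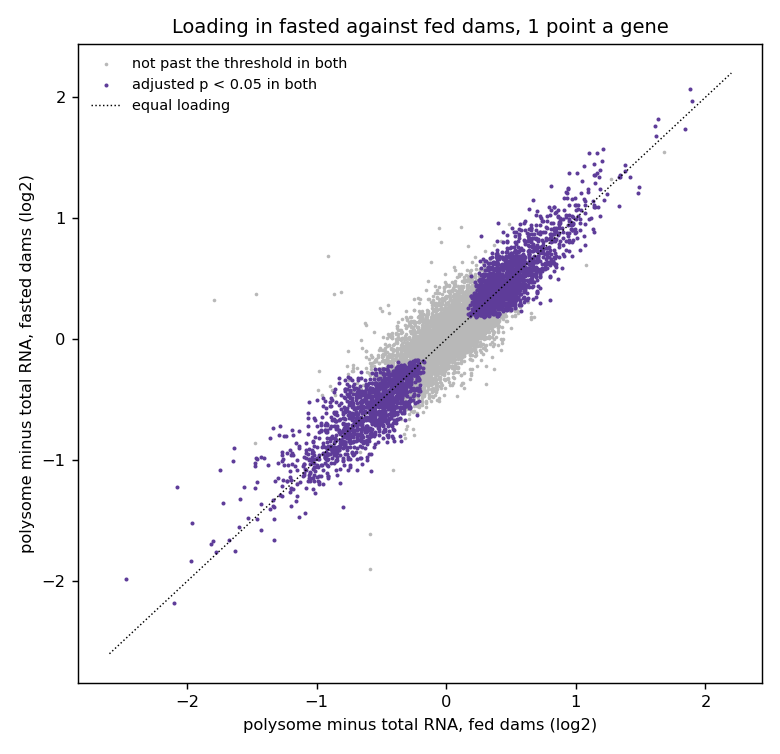
Polysome minus total RNA (log2) in fasted dams against the same difference in fed dams, 1 point for each of the 10174 genes tested. Purple points passed an adjusted p under 0.05 in both diets (3458 genes, all in the same direction), grey points did not, and the dotted line marks equal values. The points follow the line, with a Pearson correlation of 0.906 across genes.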

How the data were processed

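Fetal liver RNA was measured on 12 arrays, 3 per diet and fraction. The deposited intensity values were made by the authors with RMA, per the submitters' processing notes, and run from 3.62 to 21344 on a linear scale, so log2(value + 1) was used. Of 28826 probes, 15209 had exactly 1 gene symbol in the platform table, and 306 had several and 13311 none listed. For 15178 the current name came from the Entrez identifier. The 494 genes with several probes took the brightest. Genes under the 40th percentile of mean log2 value over all probes (6.07) were left out.

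The means of the 4 groups were fitted over 12 arrays with limma 3.58.1 in R 4.3.3 (8 residual and 5.16 prior degrees of freedom), two-sided, and was tested on simulated data. Each gene list is described by its counts and median, with no test of the list. Members and lists were chosen with earlier results of these data known, and the family lists of solute carriers, transferases, serpins, small complexes and surface proteins after values were seen. Named genes were the 12 largest rises and falls called whose arrays did not overlap, per list the 3 called members that changed most in each direction (or the 2 smallest p), the 6 smallest p for the difference between diets, and a set of known regulated, secreted and metabolic genes. Further genes named in lists were chosen after their values were seen. Array numbers pair total with polysome RNA, an inference from the data: deviations from group means correlated at 0.154 to 0.362 for equal numbers. Protein lengths and signal sequences were not analysed here. The number of arrays limits the precision.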

Additional observations from a re-analysis of the deposited data

Results flagged for a closer look

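Zfp521, a zinc finger transcription factor of progenitor cells, had polysome arrays above the total arrays in fasted dams (6.65, 6.37 and 6.78 against 6.34, 6.35 and 6.26) and below them in fed dams (6.28, 6.26 and 5.91 against 6.7, 6.46 and 6.63). The difference between diets was 0.73 ± 0.17 (SE) log2, and it did not pass limma's test after adjustment over all genes (unadjusted p = 0.000781, adjusted p = 0.856). All values lie close to the filter level of 6.07.

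Probes without a single gene symbol were outside the comparison. Of 6595 that were bright enough, 1799 passed the threshold for polysome against total RNA in fasted dams, 970 higher and 829 lower on polysomes, with a median difference of 0.0197 over all of them. By at least 2-fold, 68 were higher and 128 lower. They are unnamed here.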

How the results depend on the processing

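The count of genes past the threshold in fasted dams was 4446 and ranged from 4227 to 5007 without the filter, with quantile normalization or centred arrays, with probes averaged per gene, a trended robust prior, the compared arrays alone, either replicate block or log2 with nothing added, and from 3614 to 4655 when 1 array was left out. In fed dams the range without 1 array was 3661 to 4541. The difference between diets gave 0 genes in each such fit (0 to 0), and 1 with the replicate block, which pairs total and polysome arrays of equal number within a diet. The block left 4884 genes in fasted dams and changed, among genes named in the text, the calls of C1qc (lost), Fasn, Igfbp2, S100g, Paox and Vom1r34 (gained). Of 234 named genes that passed, 203 passed in every alternative, as did 3118 (70.1%) of all calls. Of the calls in fasted dams, 58.3% were higher, 64.9% with centred arrays and 54.1% with quantile normalization. The median of all genes was 0.096 and 0.0415 under these scalings. Olfactory, vomeronasal and taste receptors were too dim in 209 of 212 cases, and without the filter 1 was higher and 11 lower. Of the tested genes, 153 had a fasted group mean under the filter level, 44 of them called.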
